A study of Mus musculus with 23 samples.

Results

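The genes described here are 10 components, feedback inhibitors and targets of the LIF, JAK and STAT3 pathway: Lifr, Il6st, Jak1, Jak2, Stat3, Socs3, Socs2, Pim1, Pim3 and Bcl3. They were picked by gene name as 10 of the 53607 gene rows in the count table, with earlier results of these data known. All 10 passed the filter on low counts and were among the 20372 rows tested. The comparison that frames them is the move of mouse embryonic stem cells from a medium with LIF to a medium whose listed additions do not include it.

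LIF is a cytokine that keeps mouse embryonic stem cells undifferentiated. It binds the receptor chain LIFR, which pairs with gp130, the product of Il6st, and the pair activates the kinases JAK1 and JAK2. These phosphorylate STAT3, which enters the nucleus and raises the transcription of target genes, among them Socs3, whose product binds gp130 and JAK and shuts the signal down. STAT3 is also known to raise its own transcription, and its activity in these cells supports naive pluripotency factors such as KLF4 and TFCP2L1.

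RNA was sequenced from 23 cultures in 8 groups, formed by medium, by ERF genotype (wild type, or labelled knockout) and by whether RAS had been deleted. By their labels all cells, controls included, were H-Ras-/-;N-Ras-/- with a Raslox/lox background and the tamoxifen-inducible recombinase Ubiq-CreERT2; RAS was deleted with 4-hydroxytamoxifen (OHT) for 6 days, and the drug and the deletion cannot be told apart. The medium 2iL held LIF, the MEK inhibitor PD0325901 and the GSK3 inhibitor CHIR99021; the medium FA, applied for 48 hours, held 12 ng/ml FGF2 and 20 ng/ml Activin A, and leads toward epiblast-like cells. LIF and both inhibitors were therefore withdrawn together while growth factors were added, and these changes cannot be told apart. Every group had n = 3 libraries but for RAS-present, ERF wild type cultures in FA, with n = 2. The labels do not say whether replicates were grown separately, so the p-values measure the spread between these libraries, which may be technical. Below, the reference cultures are ERF wild type with RAS present, the RAS-deleted cultures are ERF wild type, the ERF-knockout cultures carry that label with RAS present, and the double-mutant cultures are labelled ERF knockout with RAS deleted.

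The total count per library was 16221640 to 29874207, of which 1 gene, Gm26917, took 17.6 to 27.9%. Erf itself was higher in 2iL under the knockout label and overlapped between genotypes in FA: it ran from 96.1 to 172 CPM (counts scaled to a common library total) in 2iL against 70.6 to 90.2 CPM with ERF wild type, and from 49.3 to 67.9 against 56.5 to 74.4 CPM in FA. H-Ras and N-Ras counts were likewise present in every group, at 12.0 to 25.9 CPM and 5.32 to 52.3 CPM. A total over a gene does not show whether a part of it was deleted, so these labels were neither borne out nor contradicted, and every ERF direction below rests on its label. Replicate 1 of each of the 4 ERF wild type groups had raised chromosome 8 expression, by a median of 0.14 to 0.22 on the log2 scale over 582 genes relative to the group mean, against -0.14 to -0.09 in the other ERF wild type replicates, and none of the 10 genes lies on that chromosome. Replicate 1 of each of the 4 groups labelled ERF knockout had slightly raised chromosome 11 expression, by 0.04 to 0.11 over 861 genes against -0.06 to -0.01 in the other replicates. Stat3 and Socs3 lie there. Without those 4 libraries, their log2 fold changes for FA against 2iL were -2.21 and -4.69 in the ERF-knockout cultures, and -2.23 and -5.19 in the double-mutant cultures, all still called. The rise was in both media, so it largely cancels in that comparison. These values therefore cannot show its part in comparisons by ERF label, where only the knockout side carries it. The summed level of 5 pluripotency genes (Pou5f1, Sox2, Utf1, Sall4, Dppa4) was 834 to 1326 CPM in the 23 libraries. The sum of 4 naive genes (Zfp42, Klf2, Nr0b1, Esrrb) was 828 to 928 CPM in all 2iL libraries and 55.7 to 119 CPM in FA, except in the RAS-deleted FA libraries, where it was 589 to 914 CPM. The sum of 4 epiblast genes (Fgf5, Otx2, Pou3f1, Dnmt3b) was 43.1 to 72.5 CPM in 2iL, 102 to 291 CPM in the RAS-deleted FA libraries and 343 to 619 CPM in the other FA libraries. The fibroblast markers Dcn and Col3a1 were at 0 in every 2iL library of the reference, ERF-knockout and double-mutant cultures. The 6 markers of that list summed to 13.9 to 22.9 CPM in 2iL. In FA they summed to 4.42 to 6.35 CPM in the RAS-deleted and 8.37 to 12.1 CPM in the other cultures. In 2iL with RAS present that sum was 13.9 to 16.4 CPM under the knockout label and 19.3 to 21.4 CPM with ERF wild type. The sum of 5 primitive endoderm genes was 48.1 to 88.3 CPM in reference and ERF-knockout FA and 7.55 to 20.0 CPM in the other FA libraries. In 2iL with RAS present that sum was 20.0 to 46.1 CPM under the knockout label and 11.3 to 19.5 CPM with ERF wild type, and with RAS deleted it was 15.3 to 20.8 and 9.29 to 15.0 CPM. The sum of 5 trophoblast genes (Cdx2, Elf5, Eomes, Tfap2c, Hand1) was 107 to 125 CPM in ERF wild type 2iL and 43.6 to 58.1 CPM in 2iL labelled ERF knockout. In FA it was 30.7 to 40.7 CPM in the reference, 49.97 to 58.1 CPM in the RAS-deleted and 18.7 to 23.98 CPM in both cultures labelled ERF knockout. This sum did not follow most of its genes. In reference FA against 2iL, 3 of the 5 had a log2 fold change above 0 and 2 below, with a median of 1.34. The part of any of these levels in the results below was not tested. In bulk RNA, fewer cells of a type and less RNA per cell cannot be told apart.

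Stat3, Socs3 and Bcl3 were the members called lower in FA in all 4 kinds of culture, and the sequences around a RefSeq start of each are shown for that reason. RefSeq windows of 300 bases (250 before and 50 after a start, build GRCm38.p6) were found for 9 of the 10 genes, 11 windows in all. The starts used for Stat3, Bcl3 and Socs3 lie 54, 69 and 970 bases inside the 5′ end of the gene spans given further on, and the Socs3 window therefore lies wholly within its span. Each is printed 5′ to 3′ on the strand of the gene; capitals mark the STAT motif TTCNNNGAA.
Socs3 promoter, chr11:117969317-117969616, minus strand: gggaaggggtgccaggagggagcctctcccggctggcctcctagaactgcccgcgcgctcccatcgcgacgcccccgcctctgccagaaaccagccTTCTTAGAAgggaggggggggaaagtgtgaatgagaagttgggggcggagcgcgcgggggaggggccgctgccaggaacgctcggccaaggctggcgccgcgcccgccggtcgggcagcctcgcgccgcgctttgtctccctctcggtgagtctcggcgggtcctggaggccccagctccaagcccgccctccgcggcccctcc
Stat3 promoter, chr11:100939491-100939790, minus strand: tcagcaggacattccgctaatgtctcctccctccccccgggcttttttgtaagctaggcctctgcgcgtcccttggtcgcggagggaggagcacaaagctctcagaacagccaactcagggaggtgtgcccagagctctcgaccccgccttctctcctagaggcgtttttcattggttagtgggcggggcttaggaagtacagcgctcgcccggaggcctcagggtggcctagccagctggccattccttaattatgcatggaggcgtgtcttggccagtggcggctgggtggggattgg
Bcl3 promoter, chr7:19822706-19823005, minus strand: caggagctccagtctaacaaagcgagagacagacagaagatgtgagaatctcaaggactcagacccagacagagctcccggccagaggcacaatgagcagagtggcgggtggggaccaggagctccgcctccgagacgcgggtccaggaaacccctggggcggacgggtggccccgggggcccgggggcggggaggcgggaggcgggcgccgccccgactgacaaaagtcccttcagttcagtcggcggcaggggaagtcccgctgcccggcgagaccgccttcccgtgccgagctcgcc
The motif, which reads the same on both strands in its fixed letters, was present in 1 of the 11 windows, that of Socs3, as TTCTTAGAA at -154 to -146 from the start. It was present in 8.3% of all 32851 RefSeq windows. The ETS motif CGGAAG, searched on both strands and not overlapping the STAT match, was present in the windows of Jak1 (-205 to -200) and Pim3 (-137 to -132) and in 16.9% of all windows. These matches describe letters in these windows and nothing more.

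Levels of different genes were compared in TPM, which divides each count by effective transcript length and scales every library to the same total. In reference 2iL, the serine/threonine kinase gene Pim1 was highest at 77.8 ± 2.44 TPM (SD, n = 3) and the kinase gene Jak2 lowest at 2.79 ± 0.22 TPM (SD, n = 3), with Lifr next to it at 10.8 ± 0.55 TPM (SD, n = 3). From Pim3 (30.9 TPM) down through Bcl3, Stat3, Socs2, Socs3 and Jak1 to Il6st (16.9 TPM), each neighbour's range overlapped the next. In reference FA the order was Pim1 (117 TPM), Pim3, Socs2, Jak1, Il6st, Stat3 (7.84 TPM), Lifr, Jak2, Socs3 (1.56 TPM) and Bcl3 (1.00 TPM). Pim3 and Socs2 overlapped in that order, and the other neighbours did not. From 2iL to FA, Bcl3 went from place 3 to 10, Socs3 from 6 to 9 and Stat3 from 4 to 6. Their 2iL places were among those whose ranges overlapped. In the double-mutant 2iL libraries Socs3 was the highest of the 10, at 66.2 ± 3.13 TPM (SD, n = 3), with a range that overlapped that of Pim1. In RAS-deleted FA Socs3 was the lowest, at 1.15 ± 0.63 TPM (SD, n = 3).

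**Figure D1:**
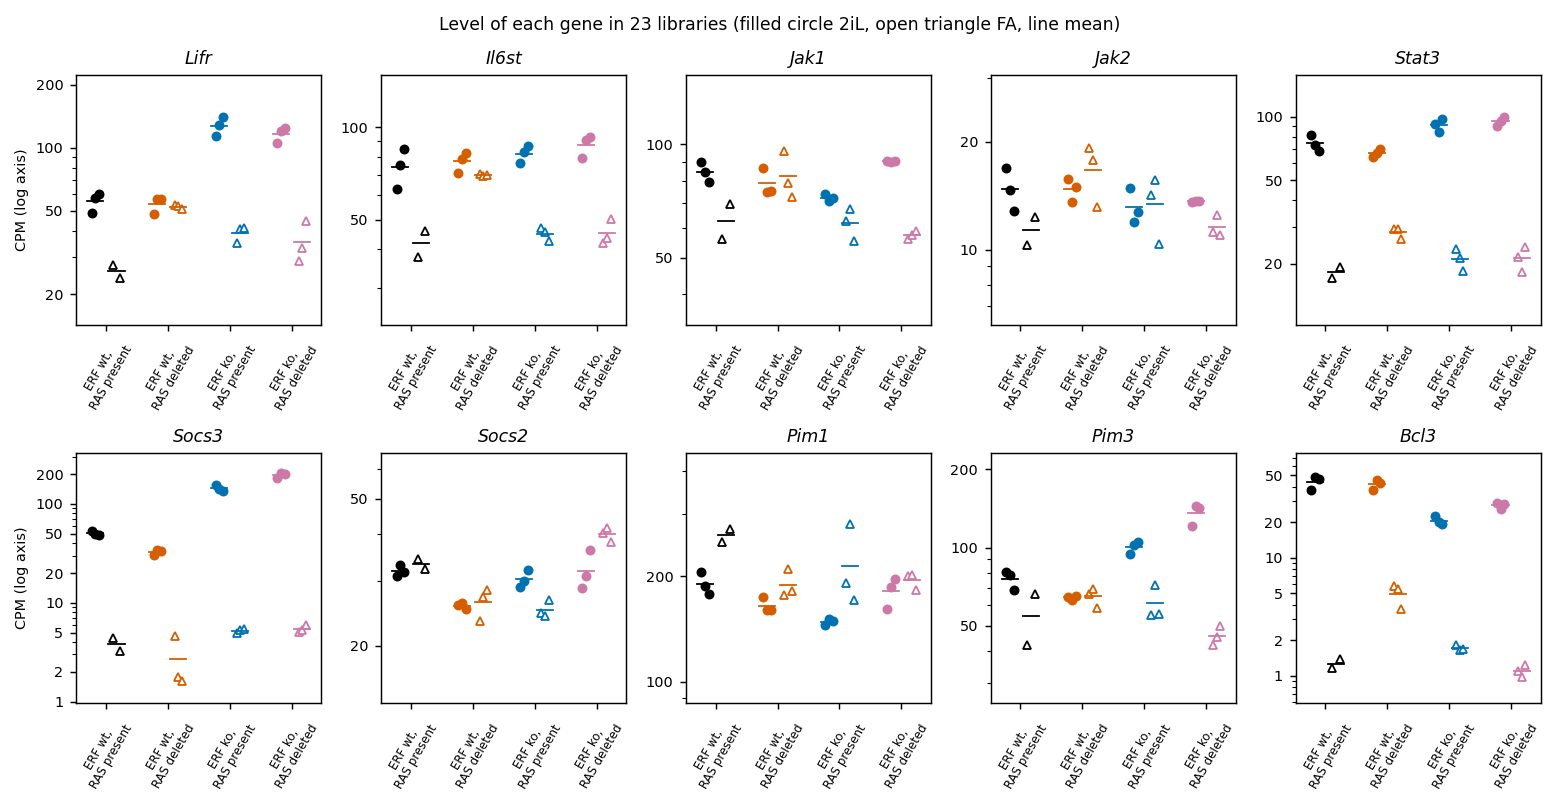
CPM of each of the 10 genes (log axis) in the 23 libraries, by culture; filled circles are 2iL, open triangles FA and lines group means. Stat3, Socs3 and Bcl3 are lower in every FA library than in any 2iL library of the same culture, and Lifr in RAS-deleted FA (50.9 to 53.4 CPM) stays within its 2iL range (48.4 to 57.2 CPM).

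Calls required a change of at least 2-fold and, in edgeR's quasi-likelihood test, an adjusted p (Benjamini-Hochberg) under 0.05. On moving to FA, 4 of the 10 genes were called in the reference cultures, all lower, where 24% of all tested genes were called and 10.8% called lower. With RAS deleted and ERF wild type 3 of 10 were called, all lower, against 16.5% of all genes called and 6.59% called lower. In the ERF-knockout cultures 4 of 10 were called lower, against 19.7% called and 7.46% called lower. In the double-mutant cultures 5 of 10 were called lower, against 24.9% called and 10.4% called lower. The median log2 fold change of the 10 genes was -0.66, -0.02, -0.80 and -1.26 in the 4 cultures in that order, while the median of all tested genes lay between 0.01 and 0.03. At an adjusted p under 0.05 with no fold minimum, 8, 3, 8 and 8 of the 10 passed in either direction, where 49.5%, 43%, 46.9% and 55.7% of all genes did. Such passes under 2-fold were less stable: over the 17 comparisons, 29 of 51 missed the adjusted p in at least 1 alternative.

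**Figure D2:**
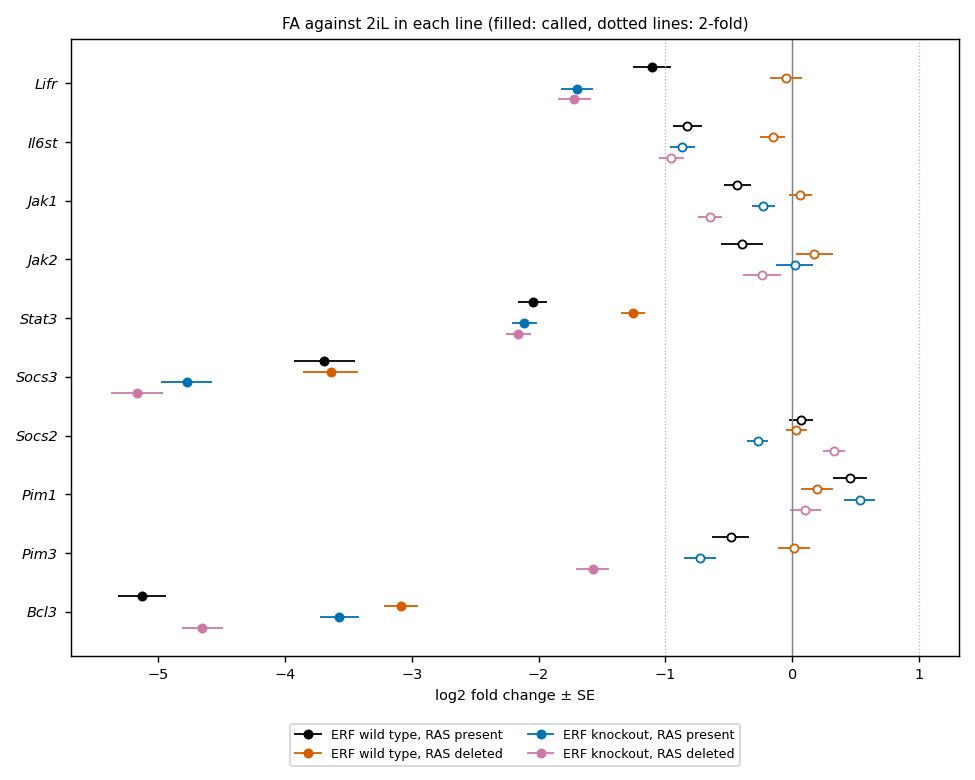
Fold change (log2, ± SE) of the 10 genes in FA against 2iL in the 4 kinds of culture; filled points are called and dotted lines mark 2-fold. Socs3 and Bcl3 lie between -5.17 and -3.09, and for Lifr, Il6st, Jak1, Jak2, Stat3, Pim3 and Bcl3 the RAS-deleted culture lies to the right of the other 3.

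Receptor chains: Lifr, which encodes the LIF-binding chain (chr15:7090610-7197489), stood at 49.0, 57.4 and 60.5 CPM in reference 2iL and at 27.7 and 23.9 CPM in reference FA. The groups did not overlap, and Lifr fell 2.15-fold (log2 fold change -1.11, SE 0.15, edgeR adjusted p = 2.09e-06). RAS-deleted cultures held it at 48.4, 56.7 and 57.2 CPM in 2iL and at 53.4, 52.6 and 50.9 CPM in FA, so the groups overlapped (log2 fold change -0.05, SE 0.13, edgeR adjusted p = 0.785). The difference between these 2 responses was itself called, at 1.06 (SE 0.19, edgeR adjusted p = 0.000306), though it fell just under 2-fold in 3 of 11 refits that each left out 1 library (0.97 without FA replicate 2 of the reference cultures, 0.99 without 2iL replicate 1 of the RAS-deleted cultures or 2iL replicate 3 of the reference cultures). In cultures labelled ERF knockout, Lifr was higher in 2iL, at 113, 129 and 140.0 CPM, and came to 35.0, 41.1 and 41.6 CPM in FA, a 3.25-fold fall (-1.70, SE 0.13, edgeR adjusted p = 4.51e-10). The double-mutant cultures went from 106, 121 and 125 CPM to 28.9, 33.2 and 44.9 CPM, a 3.29-fold fall.

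Il6st, the gene of the shared signalling chain gp130 (chr13:112464070-112506860), moved in the same cultures but by less. Its reference levels were 62.9, 75.2 and 85.1 CPM in 2iL against 37.9 and 46.0 CPM in FA, a 1.77-fold fall that passed the adjusted p alone (-0.83, SE 0.11, edgeR adjusted p = 2.15e-06). The RAS-deleted libraries held 71.0 to 82.3 CPM in 2iL and 69.1 to 70.2 CPM in FA, close together although the ranges did not overlap (-0.15, edgeR adjusted p = 0.226). In the ERF-knockout and double-mutant cultures Il6st fell 1.82-fold and 1.94-fold. With effective transcript lengths as an offset, the fall passed 2-fold in the reference (-1.05) and double-mutant (-1.02) cultures.

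Kinases: Jak1 (chr4:101151974-101265282) and Jak2 (chr19:29251803-29313095), whose products sit on the receptor chains, were not called in any medium comparison. Jak1 stood at 79.5 to 89.9 CPM in reference 2iL and at 55.9 and 69.4 CPM in FA, a 1.35-fold fall that passed the adjusted p alone (-0.43, SE 0.11, edgeR adjusted p = 0.00152) and missed it without FA replicate 1 (edgeR adjusted p = 0.0552). In the double-mutant cultures Jak1 fell 1.57-fold, from 89.8 to 90.5 CPM down to 55.9 to 58.8 CPM. Jak2 lay between 10.3 and 19.2 CPM in all 23 libraries, with log2 fold changes from -0.39 to 0.18 in the 4 medium comparisons, none of which passed.

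The transcription factor: Stat3 (chr11:100886806-100939594) stood at 82.0, 73.9 and 68.9 CPM in reference 2iL and at 17.1 and 19.3 CPM in FA. Every FA library was below every 2iL library, and Stat3 fell 4.14-fold (-2.05, SE 0.12, edgeR adjusted p = 1.65e-12). With RAS deleted and ERF wild type it went from 64.7, 67.5 and 70.3 CPM to 29.3, 29.3 and 26.3 CPM, a smaller fall of 2.39-fold. The difference in response was 0.79 (SE 0.15, edgeR adjusted p = 0.000294), under the 2-fold minimum, and 0.57 with effective length offsets (edgeR adjusted p = 0.0771). The ERF-knockout cultures held 92.3, 84.5 and 97.7 CPM in 2iL and 23.6, 21.3 and 18.5 CPM in FA, and the double-mutant cultures 90.5, 95.4 and 99.5 CPM and 21.4, 18.3 and 24.1 CPM. Stat3 thus came to a similar FA level in the 3 cultures other than the RAS-deleted ones, whose libraries were all higher.

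Feedback inhibitors: Socs3 (chr11:117966079-117970336), the inhibitor that STAT3 induces, gave the largest range of the 10 genes. In reference cultures it went from 53.5, 49.2 and 47.9 CPM in 2iL to 4.43 and 3.27 CPM in FA, a 12.9-fold fall (-3.69, SE 0.24, edgeR adjusted p = 2.48e-10). The RAS-deleted cultures went from 30.3, 34.2 and 33.7 CPM to 4.64, 1.78 and 1.62 CPM, a 12.5-fold fall (-3.64, SE 0.22). FA replicate 1 stood apart in that group: it also had the highest naive gene sum (914 CPM), the lowest epiblast gene sum (102 CPM) and raised chromosome 8 expression, and their part in its Socs3 level was not tested. Without it the log2 fold change was -4.27. The ERF-knockout cultures went from 155, 141 and 134 CPM to 4.97, 5.30 and 5.42 CPM, a 27.4-fold fall (-4.77, SE 0.20). The double-mutant cultures went from 181, 205 and 200.3 CPM to 5.05, 5.26 and 6.01 CPM, a 36.0-fold fall (-5.17, SE 0.20). These falls began from different 2iL levels and ended between 1.62 and 6.01 CPM in all 11 FA libraries.

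Socs2 (chr10:95383903-95417321), a SOCS gene best known as a feedback inhibitor of growth hormone signalling through STAT5, was not called for medium in any culture. It stood at 30.8 to 33.0 CPM in reference 2iL and at 34.3 and 32.3 CPM in FA. In the ERF-knockout cultures it fell 1.21-fold (-0.27, edgeR adjusted p = 0.0108), and in the double-mutant cultures it rose 1.26-fold (0.33, edgeR adjusted p = 0.00184), from 28.6 to 36.3 CPM up to 38.3 to 41.5 CPM.

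Targets: Bcl3 (chr7:19808462-19822824), a nuclear IκB-family cofactor of NF-κB, fell at least as far as Socs3 in the reference cultures. It went from 37.5, 48.2 and 46.5 CPM in 2iL to 1.15 and 1.37 CPM in FA, a 35.0-fold fall (-5.13, SE 0.19, edgeR adjusted p = 2.89e-15). In the RAS-deleted cultures it went from 37.5, 45.6 and 42.8 CPM to 5.74, 5.47 and 3.67 CPM, an 8.51-fold fall (-3.09, SE 0.13). All 3 of those FA libraries were above all 8 other FA libraries, which ran from 0.98 to 1.83 CPM. The ERF-knockout cultures began lower, at 22.4, 20.0 and 19.1 CPM, and came to 1.83, 1.65 and 1.67 CPM, an 11.9-fold fall (-3.57, SE 0.16). The double-mutant cultures went from 29.1, 26.0 and 28.6 CPM to 1.09, 0.98 and 1.24 CPM, a 25.1-fold fall (-4.65, SE 0.16).

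Pim1 and Pim3 encode serine/threonine kinases that JAK and STAT signalling can induce and that favour survival and growth. Pim3 (chr15:88862194-88865726) was called in the double-mutant cultures alone, where it went from 121, 145 and 142 CPM to 42.0, 45.4 and 50.02 CPM, a 2.98-fold fall (-1.57, SE 0.13, edgeR adjusted p = 1.83e-09). In the ERF-knockout cultures it fell 1.65-fold, from 94.1 to 105 CPM down to 55.2 to 72.02 CPM. Its reference FA libraries stood apart from each other, at 42.2 and 66.2 CPM, against 68.4 to 80.3 CPM in 2iL (-0.48, edgeR adjusted p = 0.00857), and its value rested on which of them was used. It was -0.21 without FA replicate 1 (edgeR adjusted p = 0.251), -0.85 without FA replicate 2 and -0.16 without the raised chromosome 8 libraries (edgeR adjusted p = 0.445). Pim3 in the RAS-deleted cultures was 62.7 to 65.2 CPM in 2iL and 58.7 to 69.5 CPM in FA.

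Pim1 (chr17:29490785-29496111) went the other way from most of the list. It stood at 206, 188 and 177 CPM in reference 2iL and at 250.01 and 272 CPM in FA, a 1.37-fold rise that passed the adjusted p alone (0.46, SE 0.14, edgeR adjusted p = 0.00886). It rose 1.45-fold in the ERF-knockout cultures (0.53, edgeR adjusted p = 0.00139), where FA replicate 2 was highest at 281 CPM and the others were 191 and 171 CPM. With single libraries left out, the edgeR adjusted p reached 0.0887 in the reference and 0.0178 in the ERF-knockout cultures. The latter was without FA replicate 2, where the value was 0.28. The ERF-knockout adjusted p was 0.0761 with only the compared groups in the fit. In the RAS-deleted and double-mutant cultures the values were 0.20 and 0.10 on the log2 scale and did not pass.

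Whether the medium response differed between cultures was tested as an interaction, the difference between 2 log2 fold changes. RAS deletion changed the response of 2 of 10 genes with ERF wild type (11.9% of all genes): Lifr, above, and Bcl3, whose fall was smaller by 2.04 (SE 0.24, edgeR adjusted p = 8.01e-07). With ERF labelled knockout it changed 1 of 10 (4.59% of all genes): Bcl3, in the opposite direction (-1.08, SE 0.24, edgeR adjusted p = 0.00475). This last call was lost with effective length offsets (-0.88) and without the raised chromosome 11 libraries (-1.07, edgeR adjusted p = 0.0736). The ERF label changed the response of 2 of 10 genes with RAS present (4.27%): Bcl3 (1.56, edgeR adjusted p = 0.000383) and Socs3 (-1.09, edgeR adjusted p = 0.0315). The Socs3 call was lost in 8 of 11 refits that left out 1 library, was -0.82 without FA replicate 1 of the reference cultures (edgeR adjusted p = 0.287), was -0.87 without the raised chromosome 8 libraries, and did not pass without the raised chromosome 11 libraries, though its value there was -1.0 (edgeR adjusted p = 0.155). With RAS deleted the ERF label changed 4 of 10 (11.3%), all toward lower values under the knockout label: Lifr (-1.67), Pim3 (-1.59), Bcl3 (-1.56) and Socs3 (-1.53). For Bcl3 and Socs3 this was a larger fall. Lifr and Pim3 fell under the knockout label and did not pass for medium with ERF wild type. The Socs3 value was -0.90 without FA replicate 1 of the RAS-deleted cultures and -0.85 without the raised chromosome 8 libraries. At the adjusted p alone the counts were 5, 4, 2 and 7 of 10 in these 4 tests, against 24.5%, 13.1%, 9.34% and 26.4% of all genes.

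RAS deletion was next compared within each medium. In 2iL with ERF wild type none of the 10 genes was called by edgeR, where 1.2% of all genes were; 2 had an unadjusted p under 0.05 and DESeq2 also called 0. Those 2 passed the adjusted p alone (5.7% of all genes did): Socs3 fell 1.54-fold (-0.62, edgeR adjusted p = 0.0384) and Socs2 fell 1.24-fold (-0.31, edgeR adjusted p = 0.0335), and in both the libraries did not overlap. With single libraries left out, their adjusted p reached 0.144 and 0.116. In 2iL labelled ERF knockout again 0 of 10 were called by edgeR (0.211% of all genes) and 0 by DESeq2, with 5 at an unadjusted p under 0.05. None passed edgeR's adjusted p alone (1.31% of all genes did), and 3 passed DESeq2's. Socs3 was at 0.45 on the log2 scale (edgeR adjusted p = 0.185), at 181 to 205 CPM with RAS deleted against 134 to 155 CPM with RAS present. Jak1, Pim1, Pim3 and Bcl3 were likewise higher in every RAS-deleted library than in any RAS-present one, while the other members overlapped.

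In FA the RAS effect differed with the ERF label. With ERF wild type 2 of 10 genes were called, both higher with RAS deleted, where 17.3% of all genes were called and 8.93% called higher. Bcl3 was 3.93-fold higher (1.97, SE 0.20, edgeR adjusted p = 5.11e-08) and Lifr 2.03-fold higher (1.02, SE 0.15, edgeR adjusted p = 9.22e-06). Lifr sat on the 2-fold line: it was 0.99 with no filter on low counts and 0.93 without FA replicate 2 of the reference cultures. At the adjusted p alone 8 of 10 passed, against 41.3% of all genes: Il6st, Jak1, Jak2 and Stat3 were also higher, by 0.73, 0.40, 0.56 and 0.64, and Socs2 and Pim1 lower, by -0.34 and -0.47. Socs3 was not among them (-0.57, SE 0.28, edgeR adjusted p = 0.114). Without FA replicate 1 of the RAS-deleted cultures, Socs3 was lower by -1.20 (edgeR adjusted p = 5.1e-06). The Jak1 and Jak2 passes were lost without FA replicate 1 of the reference cultures (0.27 and 0.45, edgeR adjusted p = 0.0984 and 0.0966) and without the raised chromosome 8 libraries (0.14 and 0.34, edgeR adjusted p = 0.215 and 0.182). The Socs2 and Pim1 passes were also lost without those libraries (edgeR adjusted p = 0.151 and 0.0990), where Socs2 was lower by -0.21 and Pim1 kept its value of -0.47. In FA labelled ERF knockout 0 of 10 were called by edgeR (6.88% of all genes) and 0 by DESeq2; 3 had an unadjusted p under 0.05 and passed the adjusted p (26.4% of all genes): Socs2 higher by 0.68, Pim3 lower by -0.41 and Bcl3 lower by -0.64. The last pair lost their pass without the raised chromosome 11 libraries at values of about the same size (-0.43 and -0.59, edgeR adjusted p = 0.0886 and 0.176), and Bcl3 also with the replicate number as a block (edgeR adjusted p = 0.0584). The interaction of RAS and ERF in FA was called for 3 of 10 genes (13.7%): Bcl3 (-2.61, SE 0.29), Lifr (-1.16, SE 0.19) and Socs2 (1.02, SE 0.12). At the adjusted p alone it passed for 8 of 10 (28% of all genes). The Socs2 value fell under 1 in 4 of 11 refits that left out 1 library (lowest 0.95), with only the compared groups in the fit (0.99), and without the raised chromosome 8 (0.88) or chromosome 11 (0.98) libraries.

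**Figure D3:**
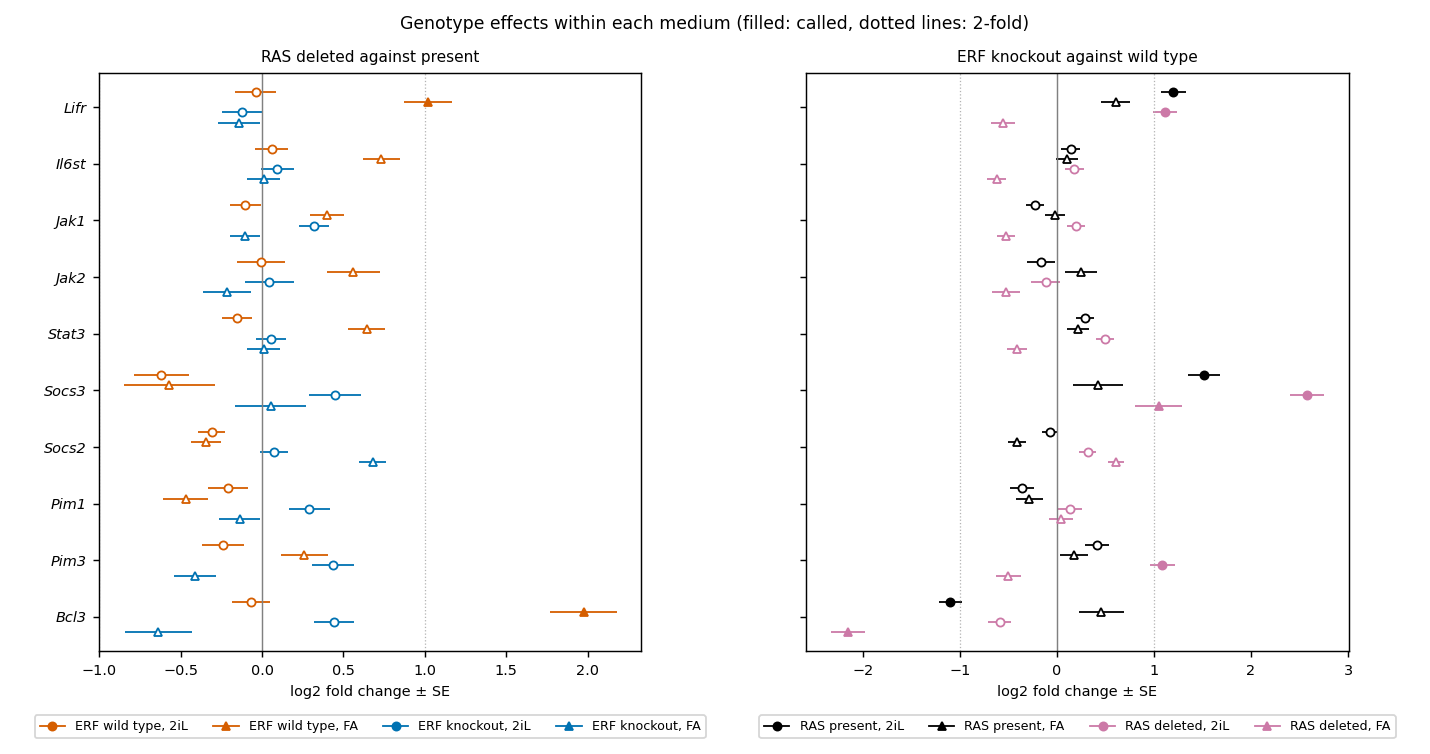
Fold change (log2, ± SE) of the 10 genes for RAS deletion (left) and for the ERF knockout label (right) within each medium; filled points are called and dotted lines mark 2-fold. Bcl3 with ERF wild type in FA (1.97) is the farthest point for RAS deletion, and Socs3 with RAS deleted in 2iL (2.58) for the ERF label.

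The libraries labelled ERF knockout differed from ERF wild type already in 2iL, where LIF was present. With RAS present 3 of 10 genes were called (9.72% of all genes). Socs3 was 2.85-fold higher (1.51, SE 0.17, edgeR adjusted p = 1.66e-06), Lifr 2.30-fold higher (1.20, SE 0.13, edgeR adjusted p = 3.87e-07) and Bcl3 2.14-fold lower (-1.10, SE 0.12, edgeR adjusted p = 4.3e-07). Stat3 and Pim3 were higher by 0.29 and 0.41, and Pim1 lower by -0.36, at the adjusted p alone, which 6 of 10 passed against 27.8% of all genes. Each of these last 3 passes was lost without some single libraries (for example without 2iL replicate 3 of the ERF-knockout cultures, where the values were 0.24, 0.38 and -0.37, with edgeR adjusted p = 0.112, 0.0683 and 0.0784). With RAS deleted 3 of 10 were called in 2iL (13% of all genes, 5.83% higher), all higher: Socs3 5.97-fold (2.58, SE 0.17, edgeR adjusted p = 1.62e-09), Lifr 2.16-fold (1.11, SE 0.13) and Pim3 2.12-fold (1.09, SE 0.13). Stat3 was higher by 0.50 and Bcl3 lower by -0.59 at the adjusted p alone (6 of 10, against 39.1%). Socs3 and Bcl3, which fell together on leaving 2iL, thus differed in opposite directions with the ERF label in 2iL. In the same 2iL libraries the trophoblast sum was lower and the primitive endoderm sum higher under the knockout label, as given above. A sum need not follow each of its genes, and the part of these levels was not tested.

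In FA the ERF label gave other results. With RAS present 0 of 10 were called by edgeR (2.36% of all genes) and 0 by DESeq2, with 3 at an unadjusted p under 0.05. Lifr was higher by 0.60 (edgeR adjusted p = 0.0125) and Socs2 lower by -0.41 (edgeR adjusted p = 0.00752), the 2 that passed the adjusted p alone (9.78% of all genes). With effective length offsets Lifr was higher by 1.20 and called. With RAS deleted 2 of 10 were called (16.6%): Bcl3 was 4.45-fold lower (-2.15, SE 0.18, edgeR adjusted p = 1.36e-09) and Socs3 2.07-fold higher (1.05, SE 0.24, edgeR adjusted p = 0.00151). The Socs3 call was lost with only the compared groups in the fit (edgeR adjusted p = 0.0686) and fell under 2-fold without FA replicate 2 or 3 of the RAS-deleted cultures (0.84 and 0.77) or replicate 3 of the double-mutant cultures (0.98). Without FA replicate 1 of the RAS-deleted cultures it was 1.67 (edgeR adjusted p = 5.45e-09), and without the raised chromosome 8 libraries 1.68. At the adjusted p alone 9 of 10 passed (42.8% of all genes); Lifr, Il6st, Jak1, Jak2, Stat3 and Pim3 were lower, by -0.62 to -0.41, and Socs2 was higher, by 0.61. In FA the trophoblast sum was also lower under the knockout label, at 18.7 to 21.2 against 30.7 to 40.7 CPM with RAS present. With RAS deleted it was 21.3 to 23.98 against 49.97 to 58.1 CPM. There the naive sum was lower too, at 87.3 to 119 against 589 to 914 CPM. The epiblast sum was higher there, at 462 to 487 against 102 to 291 CPM, and so was the fibroblast sum, at 10.2 to 12.1 against 4.42 to 6.35 CPM. With RAS present the epiblast sum was lower, at 343 to 401 against 548 to 619 CPM. The part of these levels was not tested.

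**Figure D4:**
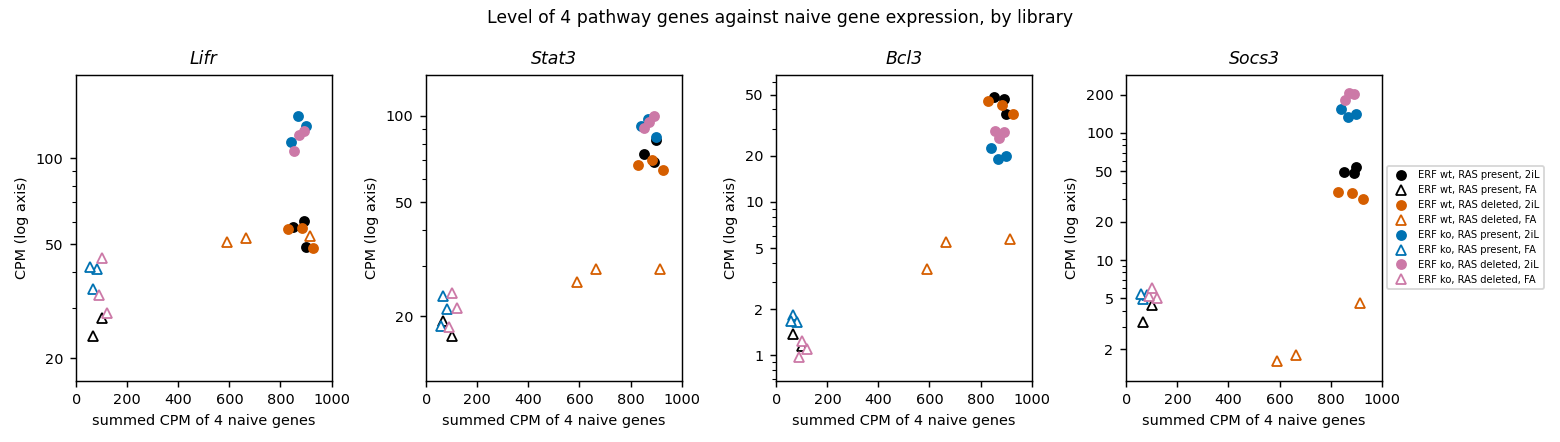
CPM of Lifr, Stat3, Bcl3 and Socs3 (log axes) against the summed CPM of 4 naive genes in each of the 23 libraries; filled circles are 2iL and open triangles FA. The 3 RAS-deleted FA libraries lie at 589 to 914 CPM of naive genes with Socs3 at 1.62 to 4.64 CPM, while 2iL libraries with naive sums of 828 to 928 CPM hold Socs3 at 30.3 CPM or more.

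The RAS-deleted FA libraries therefore held the sum of the 4 naive genes near its 2iL level in 1 library and below it in 2. Lifr was at its 2iL level, Stat3 between the 2iL and the other FA levels, and Socs3 at or below the level of the other FA libraries. The plot of pathway genes against the naive sum shows these levels for each library. The sum did not stand for each gene in it. For FA against 2iL in these cultures, 3 of the 4 naive genes had a log2 fold change below 0 and 1 above, with a median of -0.48.

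The other genes of the pathway were followed in 4 lists. Beside their counts, 13.2%, 9.96%, 12.3% and 14.5% of all tested genes were called higher in the reference, RAS-deleted, ERF-knockout and double-mutant cultures, and the shares called lower stand above. Of 12 LIF family ligands and receptor chains, 10 were tested (Il6 and Osmr were too low), and 3 were called higher and 2 lower in reference FA. Cntfr, the receptor chain for the related cytokine CNTF, rose 20.5-fold, at 35.7 ± 3.21 CPM (SD, n = 2) against 1.68 ± 0.59 CPM (SD, n = 3) in 2iL, and the cytokine gene Ctf1 rose 2.91-fold. The cytokine gene Osm fell 8.66-fold and Il6ra, the interleukin 6 receptor chain, fell 3.05-fold. In the RAS-deleted, ERF-knockout and double-mutant cultures 1, 3 and 3 genes of this list were called higher and 3, 1 and 2 lower. Lif itself, singled out after its values were seen, stood at 10.1 ± 1.68 CPM (SD, n = 3) in reference 2iL and 5.24 ± 0.29 CPM (SD, n = 2) in FA, while the RAS-deleted cultures held 10.2 and 11.1 CPM.

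Among 7 other JAK and STAT genes, 1 was called in the reference cultures. Jak3, a kinase gene on chromosome 8, fell 7.28-fold (-2.86, SE 0.11) and was called lower in all 4 cultures. In the RAS-deleted cultures 1 gene of this list was called higher and 2 lower; the higher gene, singled out after its values were seen, was Stat4 (1.96). In the ERF-knockout and double-mutant cultures 2 and 4 were called, all lower.

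Of 14 negative regulators, 2 were called in the reference cultures: the phosphatase gene Ptpn6 fell 2.61-fold (-1.38) and Pias2, whose family inhibits STATs, fell 2.11-fold (-1.07). In the other 3 cultures 1, 0 and 1 of the 14 were called, the 0 being in the ERF-knockout cultures, where 11 passed the adjusted p alone (46.9% of all genes did).

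Of 13 genes reported to respond to STAT3 in these cells, 11 were called in the reference cultures, 7 lower and 4 higher. The naive factor genes Klf4 and Tfcp2l1 fell 68.4-fold and 38.4-fold, from 238 to 3.46 CPM and from 1202 to 31.4 CPM on average, and Pramel7 fell 15.3-fold. Myc, a growth-promoting transcription factor gene, went against them: it rose 117-fold, to 41.0 ± 7.76 CPM (SD, n = 2) in FA against 0.36 ± 0.22 CPM (SD, n = 3). In the RAS-deleted cultures 4 were called lower and 2 higher, with Klf4 at 38.0 CPM and Tfcp2l1 at 199 CPM in FA. In the ERF-knockout cultures 6 were called lower and 4 higher, and in the double-mutant cultures 7 lower and 3 higher.

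**Figure D5:**
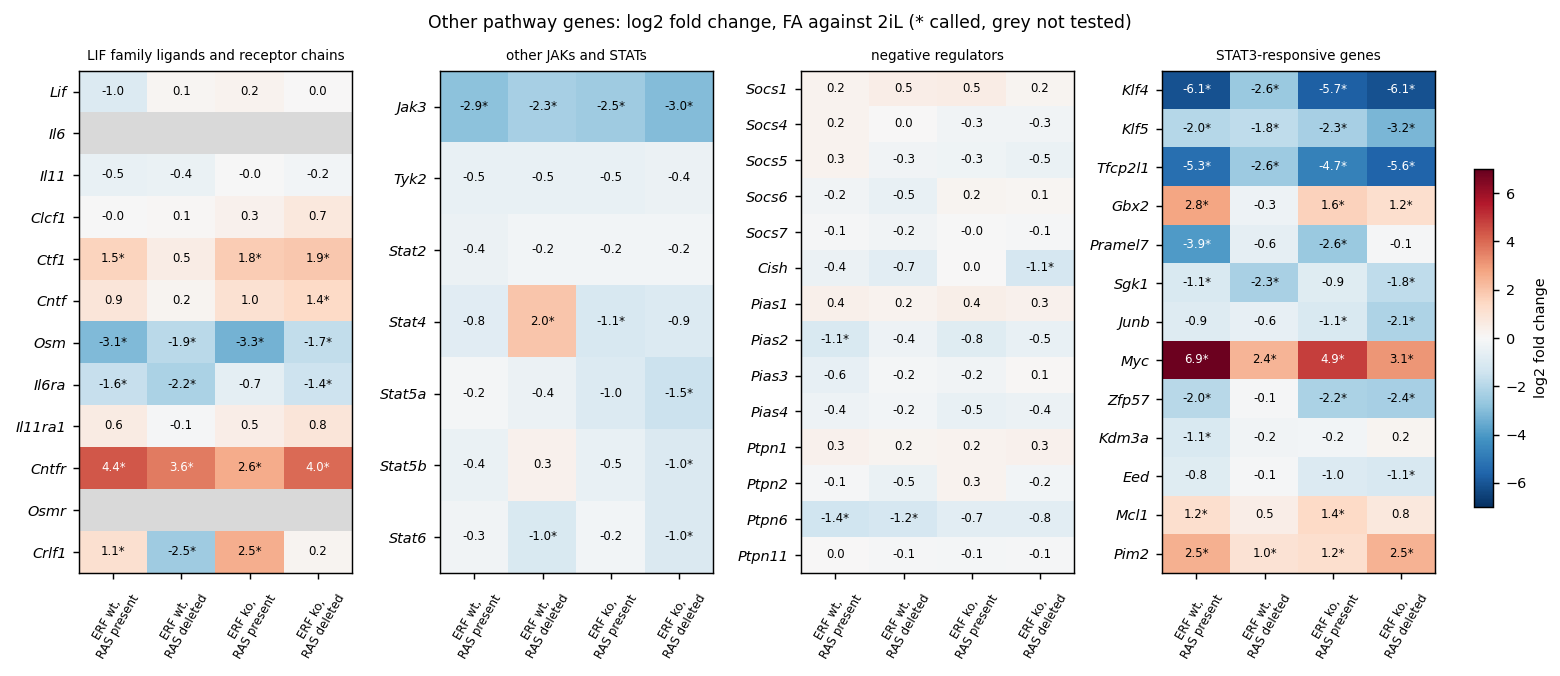
Fold change (log2) of the other pathway genes in FA against 2iL, by list and culture; colours and numbers give the same value, asterisks mark called genes, and grey rows were not tested. Jak3, Osm, Klf4, Klf5 and Tfcp2l1 are called lower and Cntfr, Myc and Pim2 called higher in all 4 cultures.

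For Socs3, Stat3 and Lifr, the genes most like them over the 23 libraries were found among 10150 genes by the Pearson correlation of log2(CPM + 1). These are descriptions over libraries that share the split between media. Closest to Socs3 were Tgm2 (0.98), Parvb, Gnpda1, Limk2 and Slc30a2. Closest to Stat3 were Lrrc31 (0.99), Lrrc34, Dgka, Sh3gl2 and Ly6g6e, and closest to Lifr were Mymx (0.96), Poglut1, Fam129b, Lamc1 and Slc44a1. None of the 10 pathway genes was among these 15.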

How the data were processed

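Strand-specific libraries from rRNA-depleted total RNA were read as 75 bp pairs, per the labels' protocols. Per the submitters' processing notes, bcl2fastq 2.20.0, fastp 0.20.0, Salmon (version not given in the sources used here) and build mm10 were used. The authors deposited estimated counts and TPM per gene symbol for each library, with effective lengths, per the file headers, and a table of counts that equals the rounded estimated counts (0 cells differ). Salmon shares reads between similar transcripts, so paralogs are less certain.

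Counts were rounded and tested in edgeR 4.0.16 (R 4.3.3): filterByExpr, TMM scaling, and a robust quasi-likelihood test in 1 model with a coefficient per group, adjusted over 20372 genes. SE was taken as |log2 fold change|/√F. CPM use the TMM-adjusted library size. The fit was also run on counts simulated from its own estimate of the spread, with independent libraries. That run does not bear on how well the p-values hold in these data. Comparisons were 12 single-factor contrasts and 5 interactions. Replicates of a group differed beyond sampling noise (chi-square per degree of freedom 3.04 to 44.9 over 22 pairs). Same-numbered libraries deviated together (r = 0.16 to 0.52 across genes, every pair over 0.1) in 5 of the 12 contrasts, a pairing that comes from the data. The main tests held no replicate block and so left this pairing out. A fit with the replicate number as a block was run as an alternative only.

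The members and lists were chosen with earlier results of these data known. Named genes were all 10 members and, per list, up to 4 called genes with the largest fold change in the reference cultures whose higher group reached 1 CPM. Most-like genes needed a mean of 5 CPM. DESeq2 1.42.0, other scaling, filters, length offsets, fewer groups, a replicate block and left-out libraries were alternatives; leaving out the raised chromosome 8 or chromosome 11 libraries was chosen after seeing the data. Some genes, 1 of them from a list, are not reported here.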

Additional observations from a re-analysis of the deposited data

Results flagged for a closer look

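In 12 cases the effect of 1 factor on a member differed with another factor by a tested interaction of at least 2-fold (edgeR, adjusted p under 0.05); all values are differences between 2 log2 fold changes. The medium response with RAS deleted minus that with RAS present was 1.06 for Lifr and 2.04 for Bcl3 with ERF wild type, and -1.08 for Bcl3 with the ERF knockout label. The medium response with the ERF knockout label minus that with ERF wild type was -1.09 for Socs3 and 1.56 for Bcl3 with RAS present, and with RAS deleted it was -1.67 for Lifr, -1.53 for Socs3, -1.59 for Pim3 and -1.56 for Bcl3. The RAS effect in FA with the ERF knockout label minus that with ERF wild type was -1.16 for Lifr, 1.02 for Socs2 and -2.61 for Bcl3. Bcl3 thus differed in all 5 interactions tested in the main fit, and the sign of its ERF interaction turned with RAS. Its -1.08 was not called in some alternatives given above. The same holds for -1.09 and -1.53 of Socs3, 1.02 of Socs2 and 1.06 of Lifr. These tests share libraries and are not independent of each other.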

How the results depend on the processing

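Of 2520 values of members under the alternatives, 2478 kept their side of the threshold, 31 lost a call and 11 gained it. No called value reversed, while 82 values that were not called changed sign, the largest of them 0.58. Counts of members called moved by over 1.5 times as follows. With no 2-fold minimum they were 8, 8 and 8 for medium in the reference, ERF-knockout and double-mutant cultures; 2, 8 and 3 for RAS (ERF wild type 2iL and FA, knockout FA); 6, 2, 6 and 9 for the ERF label (RAS present 2iL and FA, RAS deleted 2iL and FA); and 5, 4, 7 and 8 for the interactions of medium with RAS (ERF wild type, knockout), of medium with ERF (RAS deleted) and of RAS with ERF. With no filter on low counts RAS in ERF wild type FA gave 1. With effective length offsets the ERF label in RAS-present FA gave 1, medium by RAS with the knockout label 0 (edgeR; Bcl3 was -0.88 with an adjusted p = 0.0326, and DESeq2 called 1), and medium by ERF with RAS present 1. With only the compared groups the ERF label in RAS-deleted FA gave 1, and without the raised chromosome 8 libraries medium by ERF with RAS present gave 1. Without the raised chromosome 11 libraries medium by ERF with RAS present gave 1, and medium by RAS with the knockout label gave 0 (edgeR; Bcl3 was -1.07 with an adjusted p = 0.0736). With single libraries left out, counts ran from 1 to 2 for the interactions of medium with RAS (ERF wild type) and with ERF (RAS present) and the ERF label in RAS-deleted FA, and from 1 to 3 for RAS in ERF wild type FA. The cause of these shifts was not tested, except that the fold minimum acts by its construction. The fit with the replicate number as a block left all 17 counts unchanged (4, 3, 4 and 5 for medium) and changed 0 member calls; at the adjusted p alone it lost Socs2 (0.0830) for RAS in ERF wild type FA and Bcl3 (0.0584) for RAS in FA with the knockout label. The alternatives of scaling, filter and samples moved the median of all genes by at most 0.0444 on the log2 scale.

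With 2 libraries in reference FA, leaving out 1 assumes that the other varies like the rest. Bcl3 near 1 CPM and Socs3 at 2 to 6 CPM in FA are the levels with the fewest reads, and Socs3 in RAS-deleted FA rests on 3 libraries of which 1 stood apart.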
